A study of Mus musculus with 6 samples.

Results

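The genes that build cholesterol and fatty acids were followed in B16 mouse melanoma cells without the interferon-γ receptor subunit IFNγR1. The 35 genes were taken by symbol from the 55335 genes of the count tables and fall into 3 groups, namely 19 enzymes of the sterol arm, 10 enzymes of the fatty acid arm, and 6 genes for the regulators of both arms and a sterol carrier. RNA of 3 scrambled control cultures (replicates 1, 2 and 3) and 3 IFNγR1KO cultures (replicates 10, 11 and 12) was sequenced after poly(A) selection. Both groups were B16 cells in medium with 10% fetal bovine serum, and no treatment is given in the labels. In the methods of the study, B16-BL6 cells received the lentiCRISPR v2 vector, which carries Cas9 and puromycin resistance, with a guide against GFP in the scrambled control or against exon 1 of Ifngr1 in IFNγR1KO, and single clones were picked. The labels call the control genotype WT and do not say which clone or guide was sequenced or whether replicates were grown from separate clones, so p-values measure only the spread between these cultures, and a difference between clones cannot be told apart from the loss of the receptor.

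Sterol regulatory element binding proteins (SREBPs) are transcription factors made as precursors in the membrane of the endoplasmic reticulum. When sterols are scarce, the escort protein SCAP carries them to the Golgi, where proteases release the active factor, and when sterols are plentiful, INSIG proteins hold SCAP back. The product of Srebf2 acts mainly on cholesterol synthesis and the main product of Srebf1 on fatty acid synthesis, and the released factors bind promoters together with NF-Y, which recognises CCAAT, and Sp1, which recognises GGGCGG.

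Of the 35 genes, all of which passed the filter on low counts, 12 were lower in IFNγR1KO than in scrambled control cells at an adjusted p under 0.05 and none was higher, in edgeR's quasi-likelihood test, with p-values adjusted by the Benjamini-Hochberg method over the 13642 genes tested. Lower genes made up 34.3% of the members and 7.62% of all genes tested, and genes higher at the same limit made up 7.73% of all genes tested. At an unadjusted p under 0.05, 22 members were lower and 1, Insig2, was higher, against 14.8% and 14.2% of all genes tested, and DESeq2 and limma-voom called no member higher either. The first enzyme of the sterol arm (Acat2), a late one (Dhcr7), the sterol carrier Stard4 and the elongase Elovl6 fell by 50.5% to 53.2%, and Fasn, which makes palmitate, fell by 48.8%. The transcripts of the transcription factors, Srebf1 and Srebf2, did not pass the test. The 4 members Acat2, Dhcr7, Stard4 and Elovl6 were also past the study's limit for a differentially expressed gene, here a log2 fold change below -1, as were 1.96% of all genes tested. Without IFNγR1KO 10 this count was 2. In bulk RNA, fewer cells that use a gene and less of its RNA per cell cannot be told apart.

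The libraries held 6698956 to 10579788 counts on genes, every IFNγR1KO library fewer than every scrambled control library, and rows that name no gene held 53.0% to 54.0% of what was counted. Levels are given as CPM, counts scaled to a common library total with the TMM factors, and a single count was 0.0966 to 0.142 CPM. Ifngr1, the targeted gene, had 154, 144 and 172 counts in scrambled control and 80, 85 and 82 in IFNγR1KO libraries, with a log2 fold change of -0.47 (SE, the standard error, 0.16; adjusted p = 0.0729 in edgeR), and counts over the whole gene do not show whether it is edited. All 7 melanocyte marker genes were expressed (summed level 31716 to 34659 CPM in scrambled control and 27898 to 32830 CPM in IFNγR1KO libraries), and none passed the test in edgeR, DESeq2 or limma-voom, with 1, Mitf, higher at an unadjusted p under 0.05. The 10 markers of blood, vessel, epithelial, fat and liver cells reached at most 4 counts in a library, and 3 of them had no count in any. Across all genes tested, scrambled control 3 and IFNγR1KO 12 deviated from their group means together (Pearson's r across genes 0.58), and the deviation was correlated with exonic length across genes (Spearman's rho 0.43 and 0.34). The same correlation was -0.10 and -0.45 in scrambled control 1 and 2, and -0.26 in both IFNγR1KO 10 and 11. The labels name no batch for scrambled control 3 and IFNγR1KO 12. Values without these libraries are therefore given below for the arms and for the members in which they stood apart.

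The promoters are shown first because they hold the letters read by the factors these genes are known to answer to. RefSeq windows (GRCm38.p6, 250 bases before to 50 after a gene's start) were at hand for 28 of the 35 members, 37 windows in all, with none for Fdps, Fdft1, Sqle, Stard4, Scd1, Scd2 and Fads1. CCAAT, read on either strand, was in 78.9% of the sterol arm windows, 50% of the fatty acid arm windows and 37.4% of all 32851 windows. GGGCGG, on either strand, was in 78.9%, 50% and 35.7% of them. The sterol arm had 19 windows and the fatty acid arm only 8. In the 150 bases before the start alone, CCAAT was in 78.9% of sterol arm, 25% of fatty acid arm and 24.5% of all windows. GGGCGG was there in 73.7%, 37.5% and 28.6%. CACCCCAC, a spelling of the sterol regulatory element, was in the windows of Acat2 and Hmgcs1 and in 2.87% of all windows, and TCACNCCAC, which can overlap it, was in Hmgcs1 and in 1.24% of all windows. Among windows of members lower in IFNγR1KO, 53.8% held CCAAT, and among windows of the other members 70.8% did. A match is a description of letters and not a binding site. The 250 bases before the start are printed on the strand of the gene for 3 enzymes of the sterol arm and 2 of the fatty acid arm that were lower in IFNγR1KO, with CCAAT (or its reverse, ATTGG) and CACCCCAC in capitals.
Acat2, chr17:12960726-12960975, minus strand: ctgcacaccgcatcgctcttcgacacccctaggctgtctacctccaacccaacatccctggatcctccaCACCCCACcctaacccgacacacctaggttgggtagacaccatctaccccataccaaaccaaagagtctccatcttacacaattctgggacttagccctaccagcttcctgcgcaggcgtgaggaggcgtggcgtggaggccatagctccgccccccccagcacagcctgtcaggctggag
Hmgcs1, chr13:119690101-119690350, plus strand: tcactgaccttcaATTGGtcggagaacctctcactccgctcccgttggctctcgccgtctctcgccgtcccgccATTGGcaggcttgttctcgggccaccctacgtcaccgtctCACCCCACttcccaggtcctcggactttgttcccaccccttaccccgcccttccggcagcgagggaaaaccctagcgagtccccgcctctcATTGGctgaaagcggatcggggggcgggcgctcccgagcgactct
Hsd17b7, chr1:169969206-169969455, minus strand: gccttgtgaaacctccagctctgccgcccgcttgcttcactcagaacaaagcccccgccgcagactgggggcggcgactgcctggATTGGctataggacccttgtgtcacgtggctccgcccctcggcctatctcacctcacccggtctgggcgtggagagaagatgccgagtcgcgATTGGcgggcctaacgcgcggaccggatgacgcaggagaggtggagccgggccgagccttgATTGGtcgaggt
Fasn, chr11:120824548-120824797, minus strand: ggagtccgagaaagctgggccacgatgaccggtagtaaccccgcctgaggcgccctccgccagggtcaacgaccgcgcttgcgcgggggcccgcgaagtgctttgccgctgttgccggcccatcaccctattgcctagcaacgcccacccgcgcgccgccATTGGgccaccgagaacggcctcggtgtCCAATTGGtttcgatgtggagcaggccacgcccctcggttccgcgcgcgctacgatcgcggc
Elovl6, chr3:129532136-129532385, plus strand: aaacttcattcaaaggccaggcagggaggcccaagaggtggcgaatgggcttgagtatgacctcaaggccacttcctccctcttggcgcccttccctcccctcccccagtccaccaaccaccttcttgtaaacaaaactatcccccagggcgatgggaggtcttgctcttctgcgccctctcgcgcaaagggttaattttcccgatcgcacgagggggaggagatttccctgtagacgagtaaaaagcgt
Hmgcs1, Hsd17b7 and Fasn each show 3 CCAAT matches in these bases, of which a pair in Fasn overlaps on opposite strands. Acat2 shows none beside its CACCCCAC, and it was the only sterol arm gene of the 16 with a window that held no CCAAT in it. Elovl6 shows neither motif.

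In the sterol arm, 5 of 19 enzymes were lower in IFNγR1KO and none was higher, and the log2 fold change was below 0 for 18 of the 19, against 50.2% of all genes tested. In 12 of them every IFNγR1KO library was below every scrambled control library, which held for 16.6% of all genes tested. The median log2 fold change of the arm was -0.39, a change of -23.6%, with a median over all genes tested of -0.00147. The exact permutation test over 3 against 3 libraries cannot give a p below 0.1 for a single gene, which is its value wherever the groups do not overlap.

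**Figure D1:**
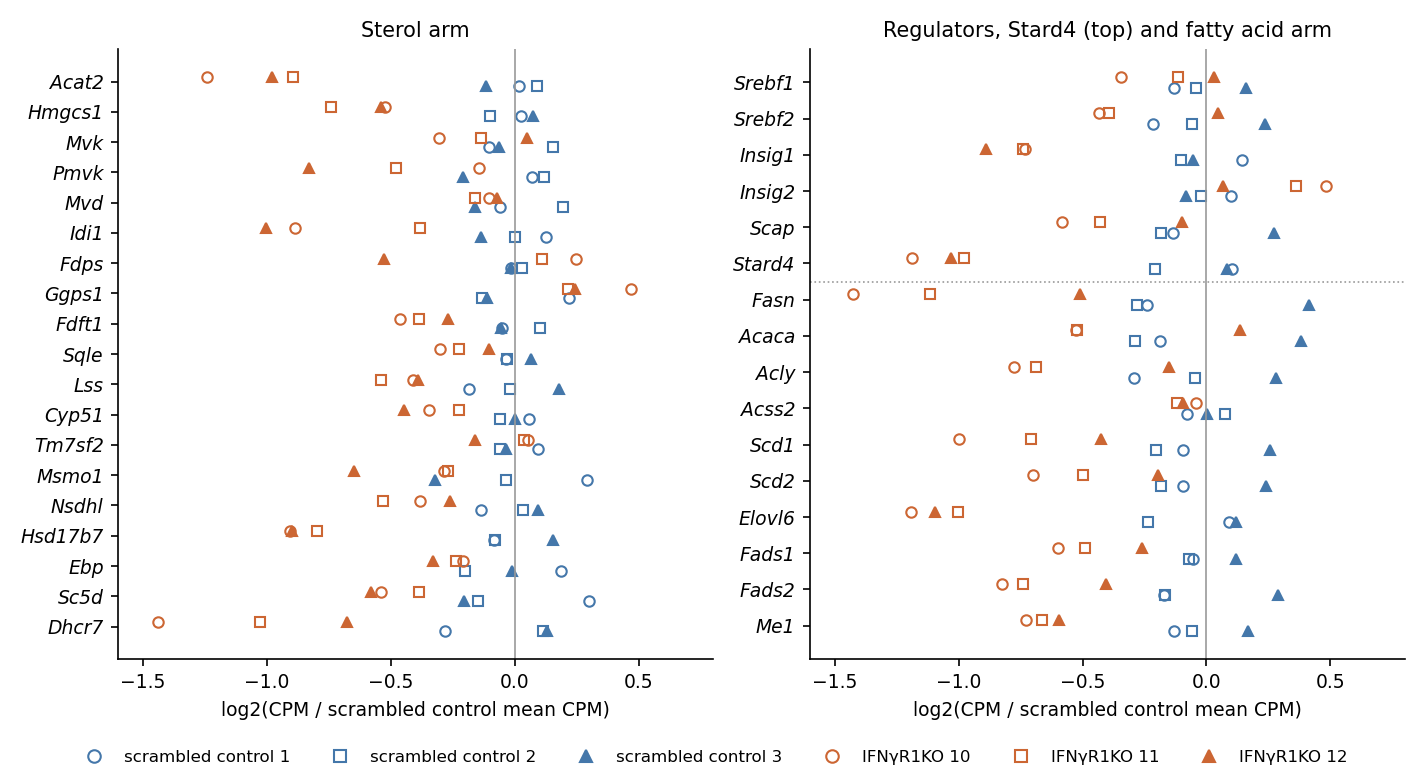
Level of each member in each library, as log2 of its CPM over the mean CPM of the scrambled control (x axis), for the sterol arm (left) and for the regulators with Stard4 and the fatty acid arm (right, above and below the dotted line). Blue marks are scrambled control 1 (circle), 2 (square) and 3 (filled triangle), and orange marks are IFNγR1KO 10, 11 and 12 in the same order. In 21 of the 35 genes every orange mark lies left of every blue mark, which held for 16.6% of all genes tested. In the fatty acid arm the filled triangles are the highest mark of both groups in 8 of 10 genes, against 28.7% of all genes tested.

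The pathway opens with Acat2 (ENSMUSG00000023832.14), the cytosolic thiolase that joins acetyl groups into acetoacetyl-CoA. Its level was 72.7, 76.5 and 66.4 CPM in scrambled control and 30.4, 38.6 and 36.4 CPM in IFNγR1KO libraries. The IFNγR1KO libraries all lay well under the scrambled control range, and the log2 fold change was -1.03 (SE 0.14, adjusted p = 0.000592 in edgeR). Acat2 has a close copy in the same region of chromosome 17, Acat3, with which reads can be shared, so the split between them is uncertain. Acat3 in scrambled control was at 107 ± 6.99 CPM and in IFNγR1KO at 90.3 ± 12.8 CPM (SD over 3 libraries), with a log2 fold change of -0.24 (adjusted p = 0.291 in edgeR). Hmgcs1, the synthase for HMG-CoA, the next intermediate, was at 61.2, 56.1 and 63.3 CPM in scrambled control and 41.9, 36.0 and 41.5 CPM in IFNγR1KO. The groups did not overlap, and the log2 fold change was -0.60 (SE 0.13, adjusted p = 0.0106 in edgeR). Without IFNγR1KO 11 the Hmgcs1 value was -0.52 (adjusted p = 0.0863 in edgeR), no longer past the threshold, and 12.1% of its exonic bases lie under Gm48342 on the other strand.

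None of the 3 mevalonate steps that follow passed the test. Mvk, mevalonate kinase, was at 30.1, 36.0 and 30.9 CPM in scrambled control and at 26.1, 29.4 and 33.5 CPM in IFNγR1KO, a log2 fold change of -0.12 with a 95% interval of -0.45 to 0.20. Mvd, which decarboxylates mevalonate diphosphate, gave -0.11 (-0.43 to 0.21), and both groups overlapped for either gene. Pmvk, the kinase between them, had a larger estimate, -0.46 (95% interval -0.86 to -0.05), which did not pass after adjustment (adjusted p = 0.123 in edgeR).

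Idi1, which isomerises the isoprene unit, was at 33.5, 30.7 and 27.9 CPM in scrambled control and 16.6, 23.6 and 15.3 CPM in IFNγR1KO. Its groups did not overlap, with a log2 fold change of -0.73 (SE 0.18, adjusted p = 0.0175 in edgeR). The call was lost without scrambled control 1 (adjusted p = 0.0553 in edgeR), scrambled control 2 (0.0672) or IFNγR1KO 10 (0.0748), at log2 fold changes of -0.66, -0.73 and -0.66, and 9.22% of its exonic bases lie under Gm48574 on the other strand. At the branch point, Fdps, farnesyl diphosphate synthase, was at only 2.61 to 2.69 CPM in scrambled control and 1.83 to 3.13 CPM in IFNγR1KO, and its count is uncertain because 26.7% of its exonic bases lie under Gm43738 on the same strand. Ggps1, which leads into geranylgeranyl diphosphate rather than sterols, was the sterol arm gene with a positive value, 32.6, 25.6 and 25.9 CPM in scrambled control and 38.8, 32.5 and 33.2 CPM in IFNγR1KO, a log2 fold change of 0.31 that did not pass the test (adjusted p = 0.199 in edgeR).

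From squalene onward the enzymes work on the sterol skeleton. Fdft1, squalene synthase, had a log2 fold change of -0.37 (adjusted p = 0.0764 in edgeR), with 18.3% of its exonic bases under Ctsb on the other strand. Sqle, the epoxidase, gave -0.21 (adjusted p = 0.316), and Lss, which closes the rings to lanosterol, gave -0.45 (adjusted p = 0.0536). Cyp51, the lanosterol demethylase and the enzyme of the arm with the highest level per kilobase of exon (43.5 CPM per kilobase in scrambled control and 34.5 in IFNγR1KO), gave -0.34 (adjusted p = 0.104). In each of these 4 genes every IFNγR1KO library was below every scrambled control library, but none passed the test.

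Hsd17b7, the sterol ketone reductase of the demethylation that follows, was at 15.1, 15.1 and 17.8 CPM in scrambled control and 8.52, 9.21 and 8.58 CPM in IFNγR1KO. The groups were far apart for their spread, with a log2 fold change of -0.87 (SE 0.17, adjusted p = 0.00531 in edgeR). The enzymes of the same demethylation, Msmo1 and Nsdhl, both had a log2 fold change of -0.39 (adjusted p = 0.155 and 0.0946). Tm7sf2, a sterol reductase, gave -0.02 with an interval of -0.40 to 0.36, and shares 12.1% of its exonic bases with Vps51 on the same strand.

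The last steps run through Ebp (log2 fold change -0.26, adjusted p = 0.25 in edgeR), Sc5d (-0.50, adjusted p = 0.0535) and Dhcr7, the reductase that turns the precursor of vitamin D into cholesterol. Dhcr7 was at 42.6, 55.9 and 56.6 CPM in scrambled control and 19, 25.3 and 32.3 CPM in IFNγR1KO. The highest IFNγR1KO library was below the lowest scrambled control library, and the log2 fold change was -1.02 (SE 0.19, adjusted p = 0.00408 in edgeR). Lss and Sc5d lay just outside the threshold and passed it with some single libraries left out, Lss without scrambled control 1 (adjusted p = 0.0474) or IFNγR1KO 12 (0.0439) and Sc5d without scrambled control 3 (0.0244), as did Msmo1 without scrambled control 3 (0.0413).

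**Figure D2:**
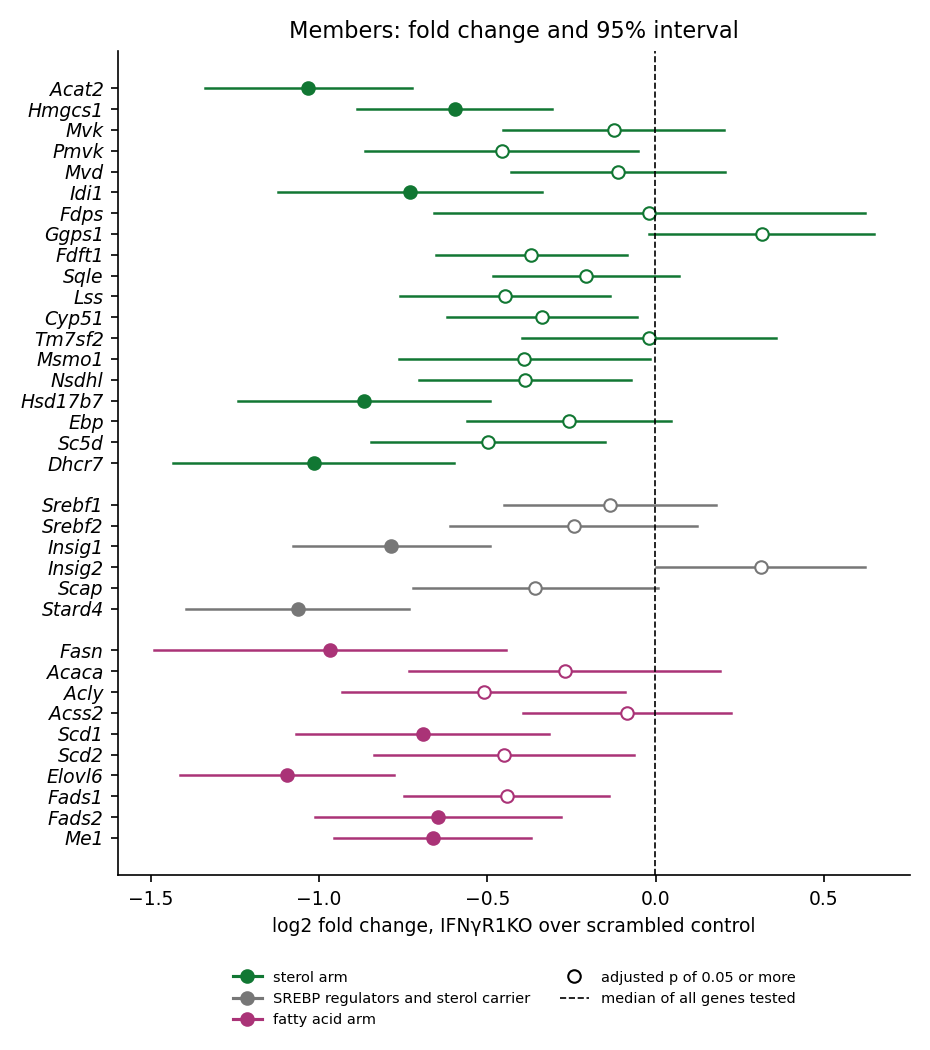
Log2 fold change of IFNγR1KO over scrambled control (x axis) with its 95% interval for each of the 35 members, by group. Filled points have an adjusted p under 0.05 and the dashed line is the median of all genes tested, and all 12 filled points lie left of the line.

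Among the regulators, the transcription factors themselves showed no change that passed the test. Srebf1 was at 126, 134 and 154.1 CPM in scrambled control and 108.8, 127.5 and 141.1 CPM in IFNγR1KO, with overlapping groups and a log2 fold change of -0.13 (SE 0.15, 95% interval -0.45 to 0.18, adjusted p = 0.601 in edgeR). Srebf2 was at 149.3, 166.3 and 204.3 CPM in scrambled control and 128.3, 132.1 and 179 CPM in IFNγR1KO, with a log2 fold change of -0.24 (SE 0.17, 95% interval -0.61 to 0.12, adjusted p = 0.385 in edgeR). The intervals leave room for a decrease of either transcript, and counts per gene do not separate the Srebf1 isoforms or show how much precursor is cleaved. In Srebf2, scrambled control 3 and IFNγR1KO 12 stood above their groups, and IFNγR1KO 10 and 11 minus scrambled control 1 and 2 gave -0.27. Over the 15 alternatives given at the end, the Srebf2 log2 fold change ranged from -0.42 to -0.11. Srebf2 passed the threshold in 1 of the 15, and in 0 of the 6 fits with a single library left out. Scap, the escort, was at 70.2, 68.0 and 93.2 CPM in scrambled control and 51.4, 57.3 and 72.0 CPM in IFNγR1KO, with overlapping groups and a log2 fold change of -0.36 (SE 0.17, adjusted p = 0.184 in edgeR). Without IFNγR1KO 12, Scap was at -0.51 and passed the threshold (adjusted p = 0.0326), and 13.2% of its exonic bases lie under 5830462I19Rik on the other strand.

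The paralogous INSIG genes had values of opposite sign. Insig1, itself a target of SREBPs and a brake on them, was at 233.2, 196.7 and 203.6 CPM in scrambled control and 127.2, 126.4 and 113.9 CPM in IFNγR1KO. No library of one group reached the range of the other, and the log2 fold change was -0.79 (SE 0.13, adjusted p = 0.00226 in edgeR). Insig2, the paralog with the same role, was at 106.2, 97.7 and 93.6 CPM in scrambled control and 138.4, 127.5 and 103.7 CPM in IFNγR1KO. A single IFNγR1KO library, 12, overlapped the scrambled control range, and the log2 fold change of 0.31 (SE 0.14) did not pass the test (adjusted p = 0.169 in edgeR), but did without that library (0.42, adjusted p = 0.0486). Per kilobase of exon the order of the pair did not change, with Insig1 at 68.3 and Insig2 at 28.6 CPM per kilobase in scrambled control and 39.6 and 35.5 in IFNγR1KO.

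Stard4, which carries cholesterol between membranes, had the second largest decrease of the members. It was at 41.0, 33.1 and 40.5 CPM in scrambled control and 16.8, 19.4 and 18.7 CPM in IFNγR1KO. The IFNγR1KO libraries lay close together and far under the scrambled control range, with a log2 fold change of -1.06 (SE 0.15, adjusted p = 0.000794 in edgeR).

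In the fatty acid arm, 5 of 10 enzymes were lower in IFNγR1KO and none was higher, all 10 had a log2 fold change below 0, and in 7 every IFNγR1KO library was below every scrambled control library, where the shares of all genes tested were 7.62%, 50.2% and 16.6%. The median log2 fold change was -0.58, a change of -33.0%. The sterol arm median lay 0.19 above it, less than the spread of that difference between replicates (SD 0.26). Within IFNγR1KO 12 minus scrambled control 3 the medians of the arms lay 0.18 apart, as they did in IFNγR1KO 10 and 11 minus scrambled control 1 and 2 (0.18). This split of the libraries was chosen after the data were seen. The difference between the arms has no test here, since genes are not replicates. The count of 5 depended on single libraries, at 2 without IFNγR1KO 10, 2 without IFNγR1KO 11 and 9 without IFNγR1KO 12. The share of all genes tested that was lower moved the same way, to 3.73%, 3.25% and 10.3% in these fits.

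The arm starts from cytosolic acetyl-CoA. Acly, which cleaves citrate to make it, was at 239.1, 283.6 and 355.6 CPM in scrambled control and 170.8, 181.8 and 263.9 CPM in IFNγR1KO, and its log2 fold change of -0.51 did not pass the test (adjusted p = 0.0979 in edgeR). Acss2, which makes acetyl-CoA from acetate, stayed between 21.9 and 25.1 CPM in all 6 libraries, with a log2 fold change of -0.08 (95% interval -0.39 to 0.22). Acaca, the carboxylase that commits acetyl-CoA to the pathway, gave -0.27 (adjusted p = 0.449). Without IFNγR1KO 12, Acly (-0.74, adjusted p = 0.00374) and Acaca (-0.53, adjusted p = 0.0383) passed the threshold, and without scrambled control 3 Acly was at -0.35 (adjusted p = 0.253) and Acaca at -0.03.

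Fasn, fatty acid synthase, was at 395.1, 384.4 and 621.3 CPM in scrambled control and 173.8, 215.4 and 327.7 CPM in IFNγR1KO. Scrambled control 3 and IFNγR1KO 12 stood far above the other libraries of their group, yet the groups did not overlap, and the log2 fold change was -0.97 (SE 0.24, adjusted p = 0.0182 in edgeR). The call was lost without IFNγR1KO 10 (-0.78, adjusted p = 0.0727) or IFNγR1KO 11 (-0.88, adjusted p = 0.0944). The Fasn value was -0.71 without scrambled control 3 (adjusted p = 0.0272), -1.27 without IFNγR1KO 12 (adjusted p = 5.42e-05) and -1.004 without both (adjusted p = 4.54e-06), past the threshold in each. Me1, the malic enzyme that supplies NADPH, was at 140.1, 147.4 and 172.4 CPM in scrambled control and 92.5, 96.7 and 101.5 CPM in IFNγR1KO. The IFNγR1KO libraries were tightly grouped below all scrambled control libraries, with a log2 fold change of -0.66 (SE 0.13, adjusted p = 0.00627 in edgeR).

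Elovl6, which elongates palmitate, had the largest decrease of the 35 genes. It was at 66.9, 53.2 and 68.1 CPM in scrambled control and 27.4, 31.3 and 29.4 CPM in IFNγR1KO. The groups did not overlap, and in contrast to Fasn neither scrambled control 3 nor IFNγR1KO 12 stood apart from its group. The log2 fold change was -1.09 (SE 0.15, adjusted p = 0.0005 in edgeR).

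The desaturases lie as neighbours on chromosome 19 of GRCm38, Scd2 at 44293674 to 44306864 beside Scd1 at 44394455 to 44407879, and Fads2 at 10062765 to 10101746 beside Fads1 at 10182888 to 10196877. Scd1, a stearoyl-CoA desaturase, was at 97.2, 90.2 and 124 CPM in scrambled control and 52.0, 63.5 and 77.2 CPM in IFNγR1KO. The groups did not overlap, with a log2 fold change of -0.69 (SE 0.17, adjusted p = 0.0182 in edgeR), lost without IFNγR1KO 10 (-0.56, adjusted p = 0.0889) or IFNγR1KO 11 (-0.67, adjusted p = 0.0867). The Scd1 value was -0.55 without scrambled control 3, -0.85 without IFNγR1KO 12 and -0.70 without both, past the threshold in each. Scd2, its paralog and the member with the highest level per length (181 CPM per kilobase in scrambled control and 133 in IFNγR1KO), was at 926.7, 872.1 and 1171 CPM in scrambled control and 608.9, 700 and 864.4 CPM in IFNγR1KO. It did not pass the test (log2 fold change -0.45, adjusted p = 0.111), but did without IFNγR1KO 12 (-0.60, adjusted p = 0.0197), and was at -0.31 without scrambled control 3.

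Fads2, the desaturase that starts the conversion of essential fatty acids, was at 164.2, 164.6 and 225.7 CPM in scrambled control and 104.4, 110.5 and 139.6 CPM in IFNγR1KO. The groups did not overlap, and the log2 fold change was -0.65 (SE 0.17, adjusted p = 0.0225 in edgeR). Of the 12 members called, its call was the least stable, lost without scrambled control 2 (adjusted p = 0.052), scrambled control 3 (0.0618), IFNγR1KO 10 (0.104) or IFNγR1KO 11 (0.121), with log2 fold changes of -0.72, -0.48, -0.56 and -0.58. Without IFNγR1KO 12 the Fads2 value was -0.79, and without that library and scrambled control 3 it was -0.61, past the threshold in both. Fads1, the next desaturase of that path, gave -0.44 and lay just outside the threshold (adjusted p = 0.0515), inside it without IFNγR1KO 12 (-0.55, adjusted p = 0.0146).

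The fatty acid arm varied more between libraries of the same group than the sterol arm (SD of the arm's median between replicates 0.226 and 0.0418 on the log2 scale). Scrambled control 3 and IFNγR1KO 12 were both the highest library of their group in 8 of 10 fatty acid arm genes (80%), in 4 of 19 sterol arm genes (21.1%) and in 28.7% of all genes tested. In medians over the arm of log2 CPM minus the scrambled control mean, the fatty acid arm was at -0.10, -0.16 and 0.26 in scrambled control 1, 2 and 3, and at -0.74, -0.66 and -0.32 in IFNγR1KO 10, 11 and 12. The sterol arm was at 0.02, -0.01 and -0.03 in scrambled control and -0.35, -0.37 and -0.45 in IFNγR1KO. Single sterol genes still differed within a group, as Dhcr7 did in IFNγR1KO. What sets these libraries apart, and its part in the fatty acid arm, was not tested.

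**Figure D3:**
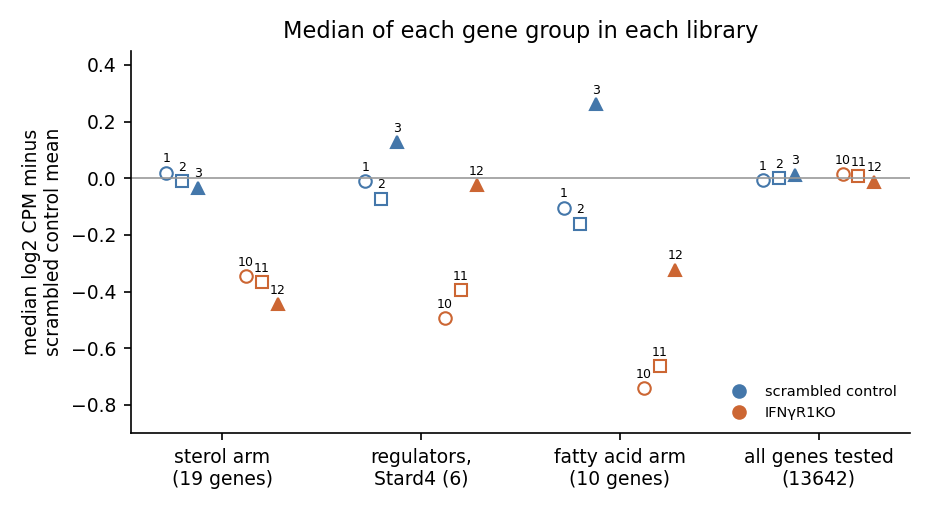
Median over the genes of each group of log2 CPM minus the scrambled control mean (y axis), for each library, labelled by its replicate number, with all genes tested at the right. Blue marks are scrambled control and orange marks IFNγR1KO, and filled triangles are scrambled control 3 and IFNγR1KO 12. In the fatty acid arm the triangles lie above their group, at 0.26 and -0.32, and in the sterol arm they lie below it.

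The difference between the groups was of a similar size on either side of this split. The split sets the libraries that deviated together against each other, and whether they deviated by the same amount was not tested. IFNγR1KO 12 minus scrambled control 3 had a median log2 difference of -0.56 over the fatty acid arm and -0.38 over the sterol arm, and IFNγR1KO 10 and 11 minus scrambled control 1 and 2 gave -0.58 and -0.40. All 10 fatty acid genes were below 0 in both, as were 16 of 19 sterol genes in each. Of all 13642 genes tested, 7096 were below 0 in the first difference and 6717 in the second. With scrambled control 3 and IFNγR1KO 12 left out together, 8 sterol and 8 fatty acid enzymes were lower at the threshold, where 11.8% of all genes tested were, and with a term for these libraries in the model 13 and 9 were, where 18.6% of all genes tested were. The split and both settings were chosen after the data were seen.

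**Figure D4:**
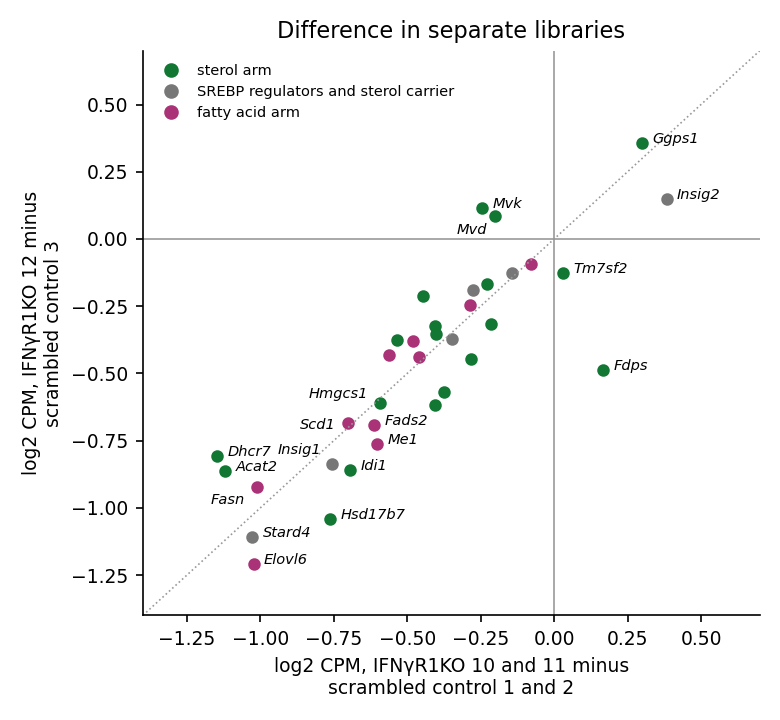
Log2 CPM difference of each member between IFNγR1KO 10 and 11 and scrambled control 1 and 2 (x axis) and between IFNγR1KO 12 and scrambled control 3 (y axis), which share no library, with the dotted line marking equal values. In each of the 2 differences 31 of the 35 genes lie below 0, and Fdps, at 0.17 and -0.49, is among those with opposite signs. Of all 13642 genes tested, 6717 were below 0 on the x axis difference and 7096 on the y axis difference. The split was chosen after the data were seen.

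Genes of the same pathways outside the 35 were read from 5 further lists. None of 13 genes of the isoprenoid branch and protein prenylation passed the test in either direction (unadjusted p under 0.05 for 0 lower and 1 higher, Dhdds, and no call in DESeq2 or limma-voom), and their median log2 fold change was -0.02. Of 10 genes for SREBP processing and sterol-regulated degradation, 2 (20%) were lower, against 7.62% of all genes tested, and none was higher. Rnf145, a ubiquitin ligase of the sterol response, was at 82.4, 103 and 105.2 CPM in scrambled control and 54.8, 58.3 and 67.3 CPM in IFNγR1KO (log2 fold change -0.69, adjusted p = 0.00794 in edgeR, or 0.0577 without IFNγR1KO 11). Mbtps1, the protease that makes the first cut in SREBPs, was at 49.4, 46.0 and 56.0 CPM in scrambled control and 36.5, 33.5 and 38.4 CPM in IFNγR1KO (-0.48, adjusted p = 0.0341 in edgeR). The Mbtps1 call was lost when any single library but IFNγR1KO 12 was left out, with adjusted p values up to 0.18.

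Of 18 genes for cholesterol uptake, trafficking and efflux, 15 passed the filter. Of these, 3 (20%) were lower, against 7.62% of all genes tested, and 1, Gramd1b, was higher, against 7.73%. Soat2 is not counted as higher here, since it passed the filter only through the group where it is high. Lrp8, a receptor of the lipoprotein receptor family, was at 66.7, 67.2 and 68.9 CPM in scrambled control and 21.7, 28.9 and 33.6 CPM in IFNγR1KO (log2 fold change -1.27, SE 0.16, adjusted p = 0.000355 in edgeR). Its scrambled control libraries were nearly equal, and its estimate was below that of every member, a difference that was not tested. Lipa, the lysosomal lipase that frees cholesterol from its esters, gave -0.62 (adjusted p = 0.00631, or 0.0647 without IFNγR1KO 11), and Scarb1, a lipoprotein receptor, gave -0.61 (adjusted p = 0.011). The Scarb1 call was lost without scrambled control 2 (adjusted p = 0.0523), IFNγR1KO 10 (0.0709) or IFNγR1KO 11 (0.0795). In the other direction, Soat2, which esterifies cholesterol, had no count in any scrambled control library and 15, 16 and 10 counts in IFNγR1KO libraries, at least 5.84-fold higher in CPM against a floor of 3 counts per library. No p is given for it, since a gene kept by the filter through 1 group had to differ. Gramd1b, which moves cholesterol from the plasma membrane, was at 28.1, 24.7 and 30.1 CPM in scrambled control and 48.6, 45.9 and 52.7 CPM in IFNγR1KO (0.83, SE 0.14, adjusted p = 0.00213 in edgeR).

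Of 24 genes for elongation, activation and glycerolipid synthesis, 21 passed the filter, 2 (9.52%) were lower and 1 was higher, shares near those of all genes tested, so the list as a whole gave no result. Elovl5, which elongates the products of Fads2, was at 72.2, 64.1 and 67.9 CPM in scrambled control and 31.5, 36.8 and 37.7 CPM in IFNγR1KO (log2 fold change -0.94, SE 0.14, adjusted p = 0.000801 in edgeR). Slc25a1, the carrier that brings citrate out of mitochondria, gave -0.57 (adjusted p = 0.0243), and the call was lost without scrambled control 2 or 3 or IFNγR1KO 10 or 11 (adjusted p 0.0653 to 0.116). Mid1ip1, an activator of the carboxylase encoded by Acaca, was at 74.1, 100.2 and 83.4 CPM in scrambled control and 109.8, 119.5 and 137.3 CPM in IFNγR1KO (0.51, adjusted p = 0.0392 in edgeR). Its call was lost when any single library but scrambled control 2 was left out (adjusted p up to 0.135), and 25.5% of its exonic bases lie under Gm14493 on the other strand.

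Of 12 genes of fatty acid oxidation, the opposing path, 10 passed the filter, 1 (10%) was lower and none was higher. The share lower was near the 7.62% of all genes tested, so the list as a whole gave no result. Cpt1a, which admits fatty acids to mitochondria, was at 34.3, 36.6 and 48.1 CPM in scrambled control and 16.8, 22.6 and 30.5 CPM in IFNγR1KO (log2 fold change -0.77, adjusted p = 0.0271 in edgeR). As in Fasn, scrambled control 3 and IFNγR1KO 12 were the highest libraries of their groups, and the call was lost without scrambled control 2 or 3 or IFNγR1KO 10 or 11 (adjusted p 0.0522 to 0.111). Over the 5 lists, 8 genes were lower. In the order above, they made up 0%, 20%, 20%, 9.52% and 10% of the tested genes of each list, against 7.62% of all genes tested. Gramd1b and Mid1ip1 were higher, or 3 genes with Soat2, where 7.73% of all genes tested were. The 8 became 4 without scrambled control 2, 5 without scrambled control 3, 4 without IFNγR1KO 10 and 2 without IFNγR1KO 11. The share of all genes tested that was lower was then 4.03%, 6.46%, 3.73% and 3.25%. The 3 became 5 without scrambled control 3, where 6.57% of all genes tested were higher.

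**Figure D5:**
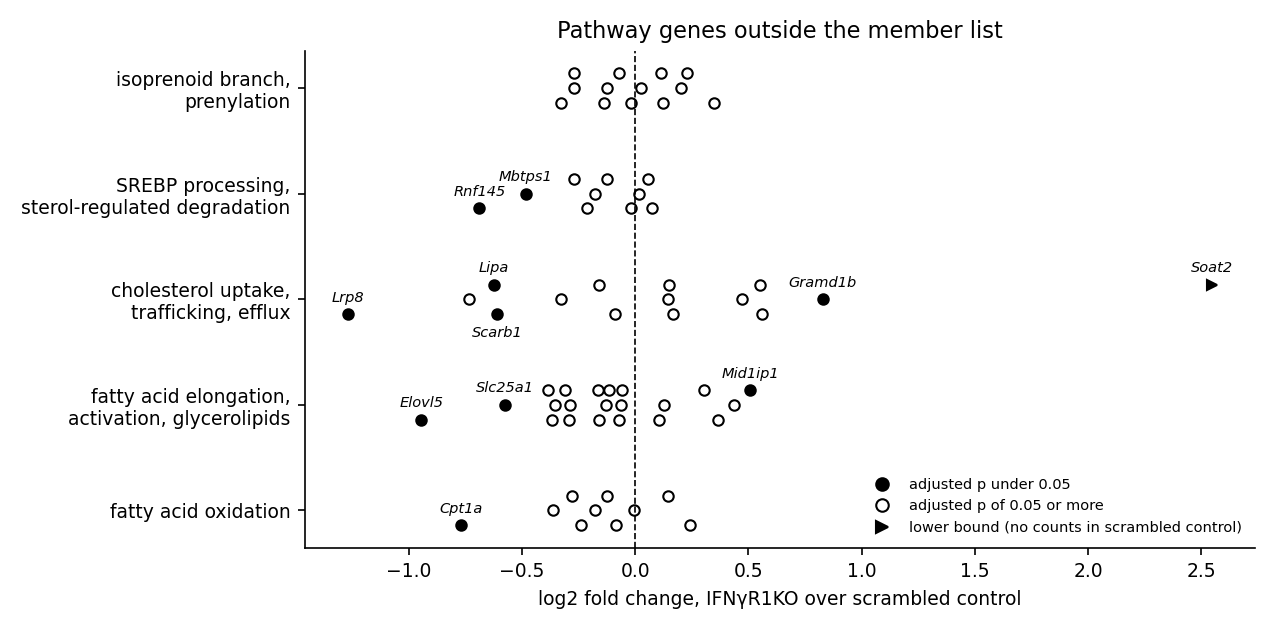
Log2 fold change of IFNγR1KO over scrambled control (x axis) for the tested genes of the 5 lists outside the members (rows), with vertical offsets only to separate points. Filled marks have an adjusted p under 0.05, the dashed line is the median of all genes tested, and the triangle for Soat2 is a lower bound, since scrambled control libraries held no count. The fill of the Soat2 triangle is not read as a result, since Soat2 passed the filter only through IFNγR1KO. In the cholesterol trafficking row the other filled marks lie on both sides of the line, from Lrp8 at -1.27 to Gramd1b at 0.83.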

How the data were processed

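Total RNA of 3 scrambled control and 3 IFNγR1KO cultures was sequenced as paired ends after poly(A) selection. The authors aligned reads to GRCm38 with STAR 2.7.5a and deposited the unscaled counts that htseq-count gave each gene (HTSeq 0.11.2, per the labels), 1 table per library, with no normalization or filter. The annotation release and strand setting are not given in the sources used here, so reads under genes on opposite strands may not be told apart.

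From these counts, edgeR 4.0.16 in R 4.3.3 was run with filterByExpr (minimum count 10, minimum total 15), TMM factors and the quasi-likelihood test, adjusting p-values by the Benjamini-Hochberg method over all 13642 genes kept. Rows naming no gene (53.0% to 54.0% of counts) were left out. Symbols came from GENCODE M21, which holds 55154 of 55335 identifiers. Totals of 6698956 to 10579788 counts limit the precision of genes at few counts, and intervals cover the replicate spread. No pair of replicates agreed within sampling noise (chi-square per degree of freedom 2.62 to 22.7). The members and lists were chosen with earlier results of these data known. Members with an adjusted p under 0.05 and the main regulators were described in full, with up to 3 called genes per direction from each other list. The script was tested on simulated counts. Alternatives were DESeq2 1.42.0, limma-voom (limma 3.58.1), other normalizations and filters, thinning, a stricter threshold, and leaving out libraries.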

Additional observations from a re-analysis of the deposited data

How the results depend on the processing

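Across 15 alternatives, Acat2, Hsd17b7, Dhcr7, Insig1, Stard4, Elovl6 and Me1 passed the threshold in all 15, Hmgcs1 in 14, Fasn and Scd1 in 13, Idi1 in 12 and Fads2 in 11, and none of these 12 changed sign. The 15 include leaving out scrambled control 3 and IFNγR1KO 12 together and a term for them, both chosen after the data were seen. In those settings 11.8% and 18.6% of all genes tested were lower, against 7.62% in the main fit. With each library left out in turn, the members lower in IFNγR1KO ranged from 4 to 7 in the sterol arm, 2 to 9 in the fatty acid arm and 2 to 3 among the regulators, those higher from 0 to 1 (Insig2 without IFNγR1KO 12), and those past the fold limit from 2 (without IFNγR1KO 10) to 5. The arm medians ranged from -0.39 to -0.31 (sterol), from -0.72 to -0.43 (fatty acid) and from -0.46 to -0.15 (regulators). Genes outside the members ranged from 2 (without IFNγR1KO 11) to 8 lower and from 2 to 5 (without scrambled control 3) higher. Here and below, the counts of outside genes higher include Soat2, which the filter kept only through IFNγR1KO. Upper quartile scaling left 2 members past the fold limit and 5 outside genes higher, where 8.76% of all genes tested were higher. No filter gave 8 fatty acid members lower and 5 outside genes higher, where 6.15% and 5.13% of all genes tested were. At an adjusted p under 0.01, 3 sterol and 2 fatty acid members were lower, and the share of all genes at that limit is not given here. Without members whose exons lie under another gene, 3 sterol and 3 fatty acid members were lower in the main fit, and the regulators' median was -0.51. With scrambled control 3 and IFNγR1KO 12 left out together, chosen after seeing the data, 8 and 8 were lower, 1 member (Insig2) and 6 outside genes higher. With a term for them, also added later, 13 sterol, 4 regulator and 9 fatty acid members and 19 outside genes were lower, and 2 members (Insig2 and Ggps1) and 9 outside genes higher. The log2 fold change of Fdps turned to 0.0190 with upper quartile scaling and 0.17 with both libraries left out, and ranged from -0.169 to 0.176 with single libraries left out (positive without IFNγR1KO 12). Tm7sf2 turned to 0.0167 and 0.0264, and ranged from -0.0578 to 0.0420 (positive without scrambled control 1 or IFNγR1KO 12). Over all genes, 1039 were lower and 1054 higher, 457 and 571 without IFNγR1KO 11, 525 and 570 without IFNγR1KO 10, and 552 and 535 without scrambled control 2. They were 1452 and 1372 without IFNγR1KO 12, and 2540 and 2243 with the term. The causes were not tested. No paired analysis was possible because the groups share no replicate number in the labels, and the term above is not a pairing.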

Other observations

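Per kilobase of exon, levels of the 35 genes spanned from 0.626 CPM per kilobase (Fdps) to 181 (Scd2) in scrambled control cells, and both were last and first in IFNγR1KO cells too. The place of Fdps is uncertain, since 26.7% of its exonic bases lie under Gm43738 on the same strand. Fasn moved from rank 6 in scrambled control (42.7 CPM per kilobase) to rank 11 in IFNγR1KO (21.8), and Acat2 from rank 11 (28.3) to rank 15 (13.8). Insig2 moved from rank 10 (28.6) to rank 5 (35.5). Acat1, the mitochondrial thiolase that carries out the reaction of Acat2 for ketone bodies and isoleucine, had 222 ± 12.6 CPM in scrambled control and 180 ± 9.42 CPM in IFNγR1KO (SD over 3 libraries), with a log2 fold change of -0.31 (adjusted p = 0.136 in edgeR). Acat1 was named after its value was seen.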
